A study of Mus musculus with 4 samples.

Results

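Integrins, syndecans and muscle cadherins are the surface proteins through which a satellite cell, the muscle stem cell, is held between its fibre and the basement membrane. The 33 genes described here were taken by symbol from the 55487 genes of the deposited tables: 16 integrin alpha subunits, 8 integrin beta subunits, the 4 syndecans, 4 cadherins (Cdh2, Cdh4, Cdh11 and Cdh15) and Vcam1. Expression was measured by RNA-seq in freshly isolated mouse satellite cells, with 2 Rbfox2 cKO libraries and 2 Control libraries. The cKO mice carry floxed Rbfox2 alleles, Pax7CreERT2, a tamoxifen-inducible recombinase driven by the satellite cell gene Pax7, and Rosa26 EYFP, a reporter that turns recombined cells yellow-fluorescent. Rbfox2 encodes an RNA-binding protein that controls alternative splicing. The alleles and any tamoxifen dosing of the Control mice, and the animals' strain, age, sex and pooling, are not stated in the sources at hand.

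An integrin is a heterodimer of an alpha and a beta subunit. The alpha subunit sets which ligand is bound, among them laminin, collagen and fibronectin or other proteins with an RGD motif, and the beta subunit connects to the actin cytoskeleton through talin and kindlin. Syndecans are transmembrane proteoglycans whose heparan sulphate chains hold matrix proteins and growth factors, and classical cadherins bind the same kind of cadherin on a neighbouring cell and reach actin through catenins. In skeletal muscle, integrin alpha7beta1 binds the laminin of the basement membrane, Sdc3 and Sdc4 are long-used satellite cell markers, and Cdh15 (M-cadherin) lies at the face between the satellite cell and the fibre.

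The libraries held 68884091 to 101997422 estimated counts. Library cKO 1 stood apart: it had the smallest total and the highest median TPM over all genes, 0.771 in cKO 1 and 0.312 in cKO 2, against 0.392 and 0.437 in Control 1 and 2. Its trimmed-mean (TMM) scaling factor, which divides its counts, was 1.27, against 0.876 in cKO 2 and 0.935 and 0.965 in Control. Rbfox2 itself stood at 40.0 and 15.2 CPM (counts scaled to a common library size with the TMM factors) in cKO, against 131 and 56.0 CPM in Control. The edgeR quasi-likelihood test put its log2 fold change at -1.76 with an SE of 0.35 (adjusted p = 0.000252), and dropping any 1 of the 4 libraries ended the call, at values between -2.61 and -1.04. It was also lost with all 4 libraries when scaled by library totals alone, with low counts left unfiltered or filtered at 5 CPM, and in limma on TPM, at values between -1.81 and -1.16. A gene total also holds reads outside deleted exons. The 14 satellite cell markers, among them Pax7, Myf5 and Calcr, were all detected, and their TPM summed to 10363 and 11014 in cKO and 11034 and 10318 in Control. Of 6 red blood cell markers, 5 rose in cKO with all 4 libraries, and their TPM summed to 1799 and 1471 in cKO against 337 and 763 in Control. Of these calls 0 remained when any 1 library was left out, and 0 or 1 under the other scalings, filters and tests.

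Sdc4 was by far the most abundant of the 33 genes. Levels of different genes were compared on TPM, which is per transcript length. Sdc4 (ENSMUSG00000017009.3; GRCm38 chromosome 2, 164424247 to 164443887, minus strand), the syndecan that gathers at focal adhesions, stood at 10958 and 11823 TPM in cKO, against 12058 and 11384 TPM in Control. The groups overlapped. It ranked 5th and 8th of all genes in cKO 1 and 2 and 8th in both Control libraries, and it made up 1.10% and 1.18% of all TPM in cKO, against 1.21% and 1.14% in Control. Vcam1, the immunoglobulin-family receptor bound by alpha4 integrins, came next at 1301 and 1612 TPM in cKO, against 1304 and 1248 TPM in Control. Vcam1 and integrin alpha7 are widely used to sort satellite cells. How these cells were sorted is not stated in the sources at hand. The other 31 genes together reached 689 and 617 TPM in cKO and 518 and 599 TPM in Control.

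Below these came Itgb1, the beta subunit shared by most matrix-binding integrins, at 291 and 320 TPM in cKO against 211 and 264 TPM in Control. Itga7, the laminin-binding alpha subunit of muscle, followed at 106 and 66.2 TPM in cKO against 85.9 and 99.9 TPM in Control. Itga5, the fibronectin-binding alpha subunit, Cdh15 and Itgav, the RGD-binding alpha V subunit, lay between 26.6 and 71.7 TPM in every library. Sdc2 and Sdc1 lay between 15.9 and 28.2 TPM. By mean TPM, 25 of the 33 genes reached 1 in at least 1 group. Of the 32 neighbouring pairs in the order of mean TPM, 6 were separated by ranges over the 4 libraries that did not overlap, namely Sdc4 above Vcam1, Vcam1 above Itgb1, Itgb1 above Itga7, Cdh15 above Itgav, Sdc2 above Sdc1 and Sdc1 above Itga8. As a gauge of low-level background, the 95th percentile of 1739 olfactory and vomeronasal receptor genes, best known from sensory neurons, stood at 1.85 and 0.710 TPM in cKO and at 0.879 and 1.16 TPM in Control. Above that gauge in all 4 libraries stood 21 of the 33 genes, and 7 were above it in 0 libraries (Itga2, Itga4, Itga9, Itga10, Itgal, Itgax and Itgb3).

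**Figure D1:**
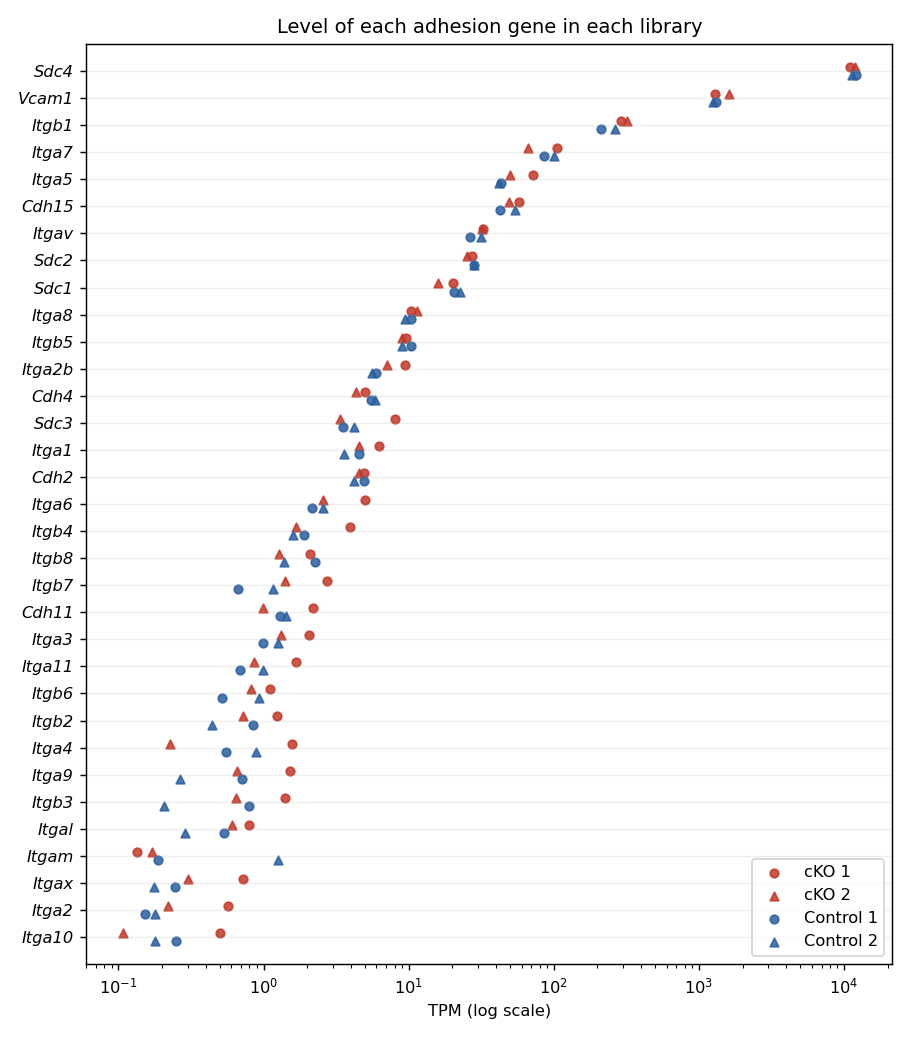
Level of each of the 33 genes in each library (TPM on a log axis, cKO in red and Control in blue, circles for replicate 1 and triangles for replicate 2), ordered by mean TPM. Sdc4 lies between 10958 and 12058 TPM and Vcam1 between 1248 and 1612 TPM, and below about 5 TPM cKO 1 is often the rightmost point.

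Promoters of the most abundant syndecan, beta subunit and cadherin are shown, since these genes lead each family. The sequences are from RefSeq on GRCm38.p6, 250 bases before to 50 bases after the RefSeq transcript start, at chr2:164443139-164443438 (minus strand) for Sdc4, chr8:128685404-128685703 (plus strand) for Itgb1 and chr8:122848124-122848423 (plus strand) for Cdh15. The GENCODE M21 gene models used elsewhere here place other starts for Sdc4, at 164443887, and Cdh15, at 122847966. By those models the Sdc4 and Cdh15 windows lie wholly inside the gene, while the Itgb1 window spans the gene's start at 128685654. Capitals mark the E-box CANNTG, the motif that basic helix-loop-helix factors such as MyoD bind, and the GC box GGGCGG, read on both strands, so that CCGCCC is capitalised too.
Sdc4: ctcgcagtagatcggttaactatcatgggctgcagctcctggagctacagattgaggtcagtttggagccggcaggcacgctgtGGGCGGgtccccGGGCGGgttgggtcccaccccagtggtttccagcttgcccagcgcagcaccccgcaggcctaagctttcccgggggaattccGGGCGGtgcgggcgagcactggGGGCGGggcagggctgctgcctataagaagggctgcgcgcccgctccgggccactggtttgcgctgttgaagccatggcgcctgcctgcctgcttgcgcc
Itgb1: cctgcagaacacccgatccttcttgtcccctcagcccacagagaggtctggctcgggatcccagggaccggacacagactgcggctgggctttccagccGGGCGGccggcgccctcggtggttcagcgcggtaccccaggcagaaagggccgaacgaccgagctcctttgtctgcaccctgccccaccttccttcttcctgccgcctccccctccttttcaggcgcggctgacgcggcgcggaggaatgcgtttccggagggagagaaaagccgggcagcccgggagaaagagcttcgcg
Cdh15: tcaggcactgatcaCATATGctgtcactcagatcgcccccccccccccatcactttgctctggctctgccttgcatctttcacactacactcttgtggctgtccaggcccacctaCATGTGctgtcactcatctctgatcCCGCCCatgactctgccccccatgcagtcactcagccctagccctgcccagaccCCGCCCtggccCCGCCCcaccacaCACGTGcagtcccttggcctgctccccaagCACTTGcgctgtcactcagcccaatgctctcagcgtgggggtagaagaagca
The Sdc4 window held 0 E-boxes and 4 GC boxes, the Itgb1 window 0 E-boxes and 1 GC box, and the Cdh15 window 4 E-boxes and 3 GC boxes, with no overlap between the motifs. Over 32851 promoters of this length, 72.3% held an E-box and 35.7% a GC box. The reference holds 24 promoters for 22 of the 33 genes, of which 18 (75.0%) held an E-box and 13 (54.2%) a GC box. A match is a run of letters, not a measured binding site.

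Between cKO and Control, 0 of the 33 genes passed an adjusted p of 0.05 in the edgeR fit, against 0.551% of the 38143 genes tested (0.364% higher and 0.186% lower in cKO). Of the 210 genes called over the whole table, 66.2% were higher in cKO, and with DESeq2's size factors 55.5% of 119 were. At an unadjusted p under 0.05, 1 of the 33 was higher (Itgb3) and 2 were lower in cKO (Itgam and Cdh4), beside 3.32% and 1.51% of all genes (4.83% in either direction). The log2 fold change was above 0 for 20 genes and below 0 for 13, with a median of 0.19, beside 0.06 over all genes tested. Among the 23 whose mean TPM reached 1, it was above 0 for 12 and below 0 for 11, with a median of 0.03, beside -0.0002 over all such genes. On the TPM themselves, limma on log2(TPM + 1) also called 0 of those 23 genes, against 0.308% of 17210 (0.209% higher and 0.0988% lower in cKO). Scaling by library totals alone moved the median of all genes to 0.25, and then 25 of the 33 were above 0. The standard errors of the 33 lay between 0.32 and 0.66 on the log2 scale. In bulk RNA, fewer cells of a type and less RNA per cell cannot be told apart.

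In normalised count, the cKO pair was entirely above the Control pair for 11 of the 33 genes and entirely below it for 6, beside 18% and 13.3% of all genes tested (31.3% in either direction). The 11 were Itga5, Itga2b, Itga1, Itga6, Itgb4, Itgb7, Itga3, Itgb2, Itgal, Itgax and Itga2. The 6 were Itga7, Sdc2, Sdc1, Cdh4, Itgb6 and Itgam. Among genes whose mean TPM reached 1, the counts were 7 and 4 of the 23, beside 3293 and 3191 of 16800 genes. The labels do not say that the libraries of a group come from separate animals, so the tests measure no more than how these libraries spread, which may be technical.

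**Figure D2:**
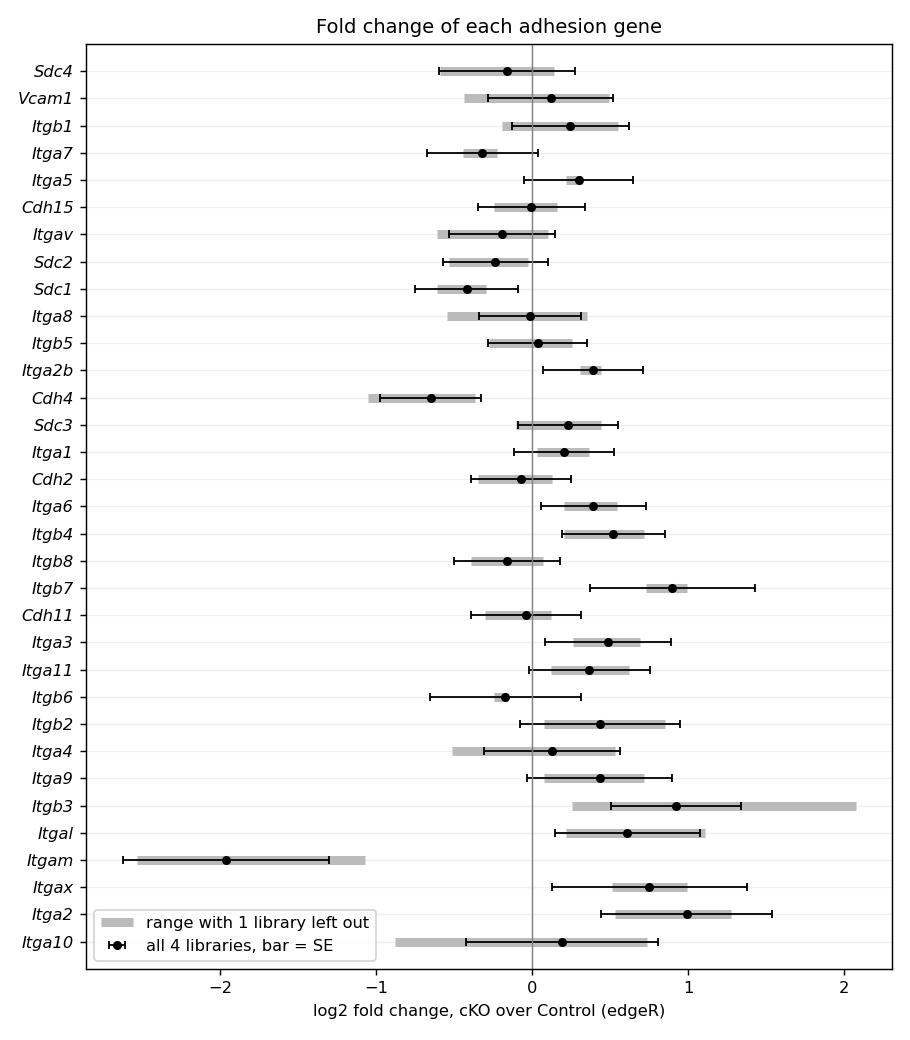
Log2 fold change of each gene, cKO over Control, from edgeR, ordered by mean TPM. Black points and bars give the value and its SE with all 4 libraries, and grey bands give the range of the values with 1 library left out. The values run from -1.96 for Itgam to 0.99 for Itga2, and for Sdc4, Vcam1, Itgb1 and Itgav the grey band crosses 0.

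Among the syndecans, 1 of 4 had a log2 fold change above 0 and 3 below. The normalised counts of Sdc4 were 11862.5 and 18637 CPM in cKO, against 17663 and 16442 CPM in Control. The cKO libraries lay on either side of the Control pair, and the log2 fold change of -0.16 (SE 0.44) had a 95% interval from -1.02 to 0.70. Sdc1, which like Sdc4 carries heparan sulphate and can be shed from the surface, had 27.1 and 31.8 CPM in cKO against 37.3 and 41.5 CPM in Control. Both cKO libraries were below both Control libraries, at a log2 fold change of -0.42 (SE 0.33, 95% interval -1.06 to 0.22, adjusted p = 1.00 in edgeR). Sdc2 had 42.6 and 57.3 CPM in cKO against 59.0 and 58.5 CPM in Control (log2 fold change -0.23, SE 0.33), and here cKO 2 lay close under the Control pair. Its value was -0.02 without cKO 1 and -0.53 without cKO 2. Sdc3, the syndecan that marks satellite cells beside Sdc4, had 15.2 and 9.86 CPM in cKO against 10.0 and 11.3 CPM in Control (0.23, SE 0.32). Its groups overlapped, with cKO 1 the highest and cKO 2 the lowest of the 4.

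Vcam1 (ENSMUSG00000027962.14, chromosome 3, 116109949 to 116129688, minus strand) had 1829 and 3302 CPM in cKO, against 2431 and 2293 CPM in Control. Again the cKO libraries lay on either side of the Control pair, and the log2 fold change was 0.12 (SE 0.40, 95% interval -0.67 to 0.90). Its best-known partner, the alpha4 subunit Itga4, had 1.58 and 0.228 TPM in cKO against 0.549 and 0.886 TPM in Control, within the background gauge in all 4 libraries. Itgb7, the other beta subunit that joins alpha4, had 2.72 and 1.41 TPM in cKO against 0.671 and 1.16 TPM in Control.

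What was called with 1 library left out depended on which cKO library was kept. Without cKO 1, Vcam1 was called higher in cKO at a log2 fold change of 0.50 (adjusted p = 0.0208 in edgeR) and Itgb1 at 0.55 (adjusted p = 0.0382 in edgeR), while Sdc4 stood at 0.14. Without cKO 2, Sdc4 was called lower at -0.59 (adjusted p = 0.00835 in edgeR) and Cdh4 at -1.05 (adjusted p = 0.0187 in edgeR), while Vcam1 stood at -0.44 and Itgb1 at -0.19. Such fits leave 1 cKO library, whose spread is taken from the Control pair, and 896 and 2267 genes were called over the whole table. With all 4 libraries the groups of Sdc4, Vcam1 and Itgb1 overlapped in normalised count. Of the 8 genes with a mean TPM over 20, cKO 1 had the lowest normalised count in 5 and the highest in 0, beside 78.5% and 3.49% of all genes in that range. On TPM, where no TMM factor enters, it was the lowest in 1 and the highest in 4 of the same 8, beside 28.3% and 31.0% of all such genes. Of the 10 with a mean TPM under 1, cKO 1 was the highest in 7 by normalised count and in 9 by TPM, beside 48.3% and 67.5% of all genes in that range.

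**Figure D3:**
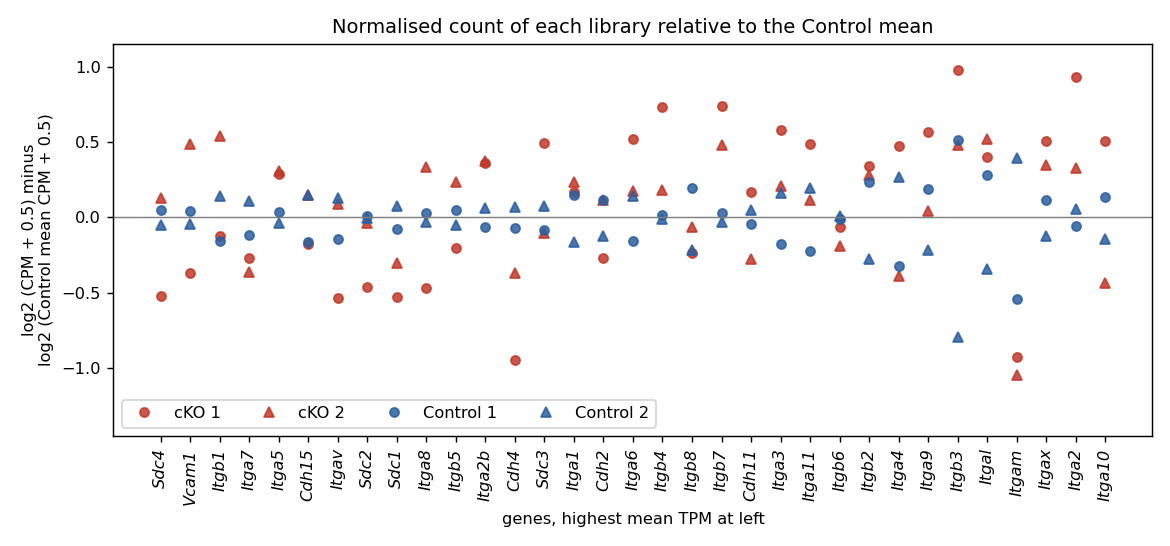
Normalised count of each library relative to the mean of the Control libraries (log2, with 0.5 CPM added), for the 33 genes in order of mean TPM. For Sdc4, Vcam1, Itgav and Itga8 at the left, cKO 1 (red circles) lies below 0 and cKO 2 (red triangles) above it, while toward the right cKO 1 is mostly the highest point.

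Itgb1 (chromosome 8, 128685654 to 128733200, plus strand) had 487 and 772 CPM in cKO, against 476 and 585 CPM in Control, a log2 fold change of 0.25 (SE 0.37, 95% interval -0.49 to 0.98). Library cKO 2 was the highest and cKO 1 lay between the Control libraries. On TPM the cKO pair was above the Control pair, an arrangement found for 32% of genes whose mean TPM reached 1 (15.7% had the reverse, and 47.8% either). The 12 alpha subunits known to pair with beta1, which are all but Itga2b and the leukocyte ones, summed to 239 and 170 TPM in cKO and to 176 and 193 TPM in Control, so that the TPM of Itgb1 was 1.22 and 1.88 times that sum in cKO, against 1.20 and 1.37 times in Control. Itga7, Itga5, Itgav and Itga8 made up 92.0% and 93.8% of the sum in cKO and 94.3% and 94.9% in Control. Within it, Itga7 held 44.1% and 38.9% in cKO against 48.8% and 51.8% in Control, and Itga5 held 30.0% and 29.3% in cKO against 24.5% and 21.7% in Control. For both shares the groups did not overlap. On TPM itself the groups overlapped for Itga7 and did not for Itga5. The 47.8% given above is for the TPM of single genes, and how often shares of such a sum are apart was not counted. Both are parts of the same sum, so a rise in one share lowers the other. The shares are a description and were not tested.

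Of the laminin-binding alpha subunits, Itga7 (chromosome 10, 128933818 to 128958282, plus strand) had 175 and 164 CPM in cKO, against 195 and 227 CPM in Control. Both cKO libraries were lower, at a log2 fold change of -0.32 (SE 0.36, 95% interval -1.01 to 0.38, adjusted p = 1.00 in edgeR). On TPM the groups overlapped, with cKO 1 the highest of the 4 at 106 TPM. Muscle fibres also express Itga7. The 10 fibre markers summed to 91.9 and 56.1 TPM in cKO and 93.1 and 87.1 TPM in Control. Of their fold changes 8 were below 0, beside 17150 of 38143 over all genes tested, and 0 were called. No marker was at 0 in all libraries, and their part in the Itga7 level was not tested. Itga6, which pairs with beta1 or beta4, had 5.04 and 2.58 TPM in cKO against 2.15 and 2.57 TPM in Control (log2 fold change of the counts 0.39, SE 0.34). Itga3, best known from epithelia and kidney, had 2.04 and 1.32 TPM in cKO against 0.985 and 1.26 TPM in Control (0.49, SE 0.41). For both, cKO 1 was the highest, and the other 3 libraries lay close together. Itgb4, the beta subunit of hemidesmosomes and the partner of alpha6, had 3.94 and 1.66 TPM in cKO against 1.89 and 1.59 TPM in Control (0.52, SE 0.33).

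Of the RGD-binding alpha subunits, Itga5 (chromosome 15, 103344286 to 103366763, minus strand) had 127.8 and 129.7 CPM in cKO, against 107.4 and 102.1 CPM in Control. In these counts the spread within each group was small beside the distance between them. On TPM, at 71.7 and 49.8 in cKO against 43.2 and 41.9 in Control, the gap between the cKO libraries was wider than that between the group means. The log2 fold change of 0.30 (SE 0.35, 95% interval -0.38 to 0.98) was under its SE in a fit whose common biological coefficient of variation was 0.373. It lay between 0.22 and 0.32 with any 1 library left out. Itgav had 58.2 and 89.96 CPM in cKO against 76.5 and 92.6 CPM in Control (-0.19, SE 0.34), and the groups overlapped. Itga8, the nephronectin receptor subunit, had 22.6 and 39.8 CPM in cKO against 32.2 and 30.9 CPM in Control (-0.01, SE 0.33), with cKO 1 the lowest and cKO 2 the highest. Itga2b, the alpha IIb subunit best known from platelets, had 9.42 and 7.06 TPM in cKO against 5.95 and 5.55 TPM in Control (log2 fold change of the counts 0.39, SE 0.32). Both cKO libraries were higher. Part of the Itga2b level was assigned to shorter non-coding transcripts, as given below with the transcript lengths. Its platelet partner Itgb3 was low, at 1.41 and 0.647 TPM in cKO against 0.792 and 0.206 TPM in Control. Of 6 platelet markers tested 0 were called, 3 had a fold change above 0, and the 7 listed, none of them at 0 in all libraries, summed to 11.5 and 5.88 TPM in cKO and 7.16 and 6.74 TPM in Control. Their part in the Itga2b level was not tested.

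The collagen-binding alpha subunits Itga1, Itga2, Itga10 and Itga11 were low, and all 4 had log2 fold changes above 0, from 0.19 to 0.99, with 0 called, though Itga10 was at -0.88 without cKO 1 and at -0.07 without Control 2. Itga1, the highest of them, had 6.28 and 4.53 TPM in cKO against 4.52 and 3.59 TPM in Control (log2 fold change of the counts 0.21, SE 0.32). Library cKO 1 was the highest and Control 2 the lowest. Itga11, a subunit best known from fibroblasts, had 1.67 and 0.861 TPM in cKO against 0.689 and 0.991 TPM in Control (0.37, SE 0.39). Several of these subunits are also made by vessel and connective tissue cells. The 10 endothelial markers, with 0 called and 8 fold changes above 0, summed to 213 and 176 TPM in cKO and 150.0 and 166 TPM in Control. Over all genes tested, 20993 of 38143 fold changes were above 0. The 10 fibroadipogenic markers, likewise with 0 called and 8 above 0, summed to 1993 and 1779 TPM in cKO and 1574 and 1747 TPM in Control, and in neither list was a marker at 0 in all libraries. Their part in these levels was not tested.

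Of the other beta subunits, Itgb5, the vitronectin-binding partner of alpha V, had 9.57 and 8.99 TPM in cKO against 10.3 and 9.06 TPM in Control (log2 fold change of the counts 0.03, SE 0.32, 95% interval -0.59 to 0.66). Itgb8, a further alpha V partner that can activate TGF-beta, had 2.1002 and 1.28 TPM in cKO against 2.27 and 1.38 TPM in Control (-0.16, SE 0.34). In both the groups overlapped, and for Itgb8 replicate 1 was the higher library of each group on TPM, but not of cKO in normalised count (4.48 and 5.12 CPM in cKO against 6.20 and 4.54 CPM in Control). Itgb3 had 3.61 and 2.41 CPM in cKO against 2.47 and 0.703 CPM in Control (0.92, SE 0.42, adjusted p = 0.840 in edgeR). Control 2 was the low one for Itgb3: without it the log2 fold change was 0.26, and without Control 1 it was 2.07. Itgb6, best known from epithelia, had 1.11 and 0.815 TPM in cKO against 0.517 and 0.933 TPM in Control, a higher mean in cKO. Its normalised counts went the other way, at 1.41 and 1.25 CPM in cKO against 1.49 and 1.52 CPM in Control (log2 fold change -0.17, SE 0.49).

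All 4 cadherins had log2 fold changes below 0 with TMM scaling, but Cdh15, Cdh2 and Cdh11, between -0.07 and -0.01, were above 0 when scaled by library totals alone. Cdh15 (chromosome 8, 122847966 to 122867397, plus strand), the highest of them, had 82.1 and 102.6 CPM in cKO, against 82.8 and 102.6 CPM in Control. Each group held 1 lower and 1 higher library at nearly the same counts, and the log2 fold change was -0.01 (SE 0.34, 95% interval -0.68 to 0.67). Cdh4, R-cadherin, had 10.1 and 15.3 CPM in cKO against 18.9 and 20.97 CPM in Control, a log2 fold change of -0.65 (SE 0.32, 95% interval -1.28 to -0.02, adjusted p = 0.990 in edgeR). Both cKO libraries were lower in CPM and in TPM, and the value stayed below 0 in all 13 alternatives, from -1.05 to -0.25. With the pairs apart, leaving out a library or rescaling can hardly turn the sign, so that agreement adds little. Cdh2, N-cadherin, which acts with Cdh15 between satellite cell and fibre, had 4.95 and 4.52 TPM in cKO against 4.93 and 4.21 TPM in Control (log2 fold change of the counts -0.07, SE 0.32). Cdh11, known from mesenchymal cells, had 2.21 and 0.988 TPM in cKO against 1.305 and 1.44 TPM in Control (-0.04, SE 0.35).

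The 5 leukocyte integrin subunits were near or under 1 TPM, apart from Itgb7 in cKO. Itgam, the alpha M subunit of macrophages and neutrophils, had 25 and 20 estimated counts in cKO, against 42 and 121 in Control, which put the log2 fold change at -1.96 (SE 0.66, adjusted p = 0.267 in edgeR). Control 2 stood alone at the high end, and without it the log2 fold change was -1.07. In the annotation Itgam shares 68.7% of its exon bases with Gm49368 on the same strand, which had 129 and 31 counts in cKO against 40 and 24 in Control, and the summed CPM of the pair gave a log2 ratio of -0.25. The estimated counts of these overlapping genes are therefore uncertain. The other 4, Itgb2, Itgal, Itgax and Itgb7, had log2 fold changes from 0.43 to 0.90, and in each the cKO pair was above the Control pair in normalised count, an arrangement that 18% of all genes tested had. With 1 library left out, Itgb2 ran from 0.079 without Control 2 to 0.85 without Control 1, and Itgal from 0.21 to 1.11 in the same 2 fits. Leukocyte markers summed to 16.5 and 5.06 TPM in cKO and to 5.05 and 8.22 TPM in Control, with 5 of 6 above 0 in fold change and 0 called. Macrophage markers summed to 57.9 and 44.8 TPM in cKO and to 30.6 and 31.6 TPM in Control, with 9 of 10 above 0 in fold change and 0 called. Over all genes tested, 20993 of 38143 were above 0. No marker of either list was at 0 in all libraries, and their part in the leukocyte integrin levels was not tested. The alpha subunits Itga4 and Itga9 (0.13 and 0.43) overlapped between the groups, as did Itga10, which shares 33.5% of its exon bases with Gm42957.

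A change in transcript choice can leave the gene total as it is. The deposited estimated counts equalled a library constant times TPM times transcript length, within 1%, for 100% of the genes that have more than 200 counts and 1 annotated transcript, so count over TPM gives the mean length of the transcripts assigned to a gene. Of the 33 genes, 30 had at least 50 counts in every library, and 0 of these were called in limma on the log2 ratio, against 0.029% of 17260 genes (0.0174% longer and 0.0116% shorter in cKO). Within 0.1 on the log2 scale lay 22 of the 30. For Sdc4 the implied length lay between 2456.5 and 2456.8 bases in all 4 libraries, beside 2458 bases for its full coding transcript.

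Itgav and Itgb5, which together form a vitronectin receptor, had the 2 shifts with an unadjusted p under 0.05. Such a p was found for 6.77% of all genes tested for length, so 2 of 30 is no more than the background. The implied length of Itgav was 4062 and 4355 bases in cKO, against 4831 and 4969 bases in Control, a log2 shift of -0.22 (SE 0.05, adjusted p = 0.625 in limma). The implied length of Itgb5 was 2678 and 2681 bases in cKO, against 2192 and 2368 bases in Control, a log2 shift of 0.23 (SE 0.05, adjusted p = 0.620 in limma). Both pairs of libraries were apart, and how many of all genes tested for length were so arranged was not counted. With the pairs apart, leaving out 1 library can hardly turn the sign. The shift then ran from -0.27 to -0.17 for Itgav and from 0.18 to 0.29 for Itgb5. The annotation lists 9 transcripts for Itgav, with coding ones of 7054 and 6788 bases among shorter fragments, and 7 for Itgb5, with coding ones of 3282, 3056 and 2130 bases. Vcam1, with coding transcripts of 3469 and 2532 bases, had implied lengths of 3190 and 3193 bases in cKO against 3127 and 3127 bases in Control (shift 0.03, SE 0.01, adjusted p = 0.816 in limma). Itga5 had 4044 and 4062 bases in cKO against 4166 and 4145 bases in Control (-0.04, SE 0.01, adjusted p = 0.740 in limma). Itga7, whose transcripts are known to be spliced alternatively in muscle, had 3755 and 3852 bases in cKO against 3796 and 3870 bases in Control (-0.01, SE 0.02). Its full-length coding transcripts are 4020 and 4013 bases long, so a switch between them would hardly move this measure. Itga2b had 2213 and 2051 bases in cKO against 1890 and 2261 bases in Control, under the 3437 bases of its only coding transcript. Its other annotated transcripts are shorter and non-coding, so part of its TPM was assigned to them. Reads across single splice junctions were not used here.

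**Figure D4:**
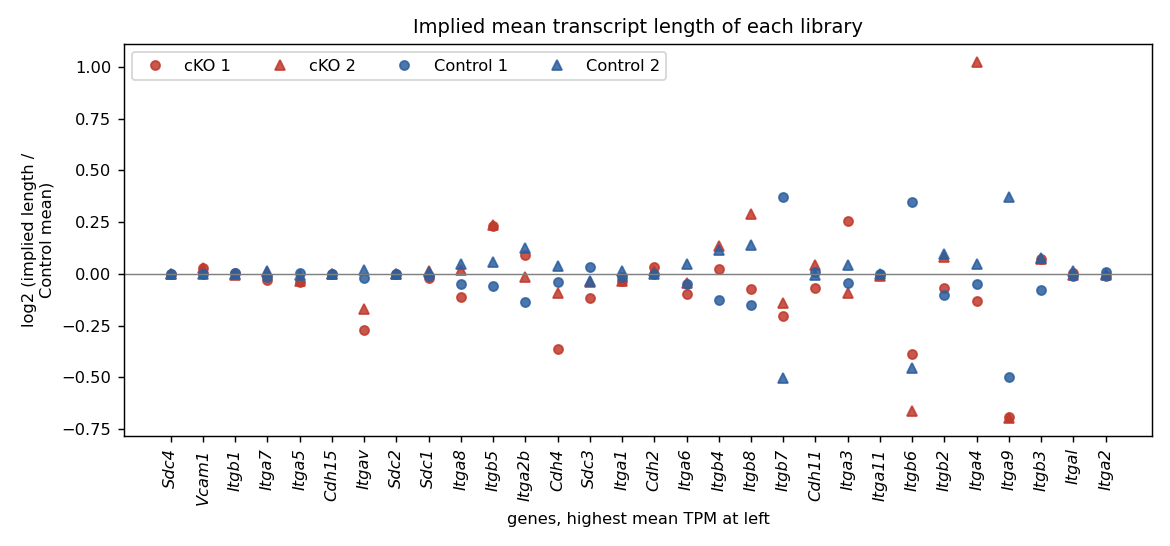
Implied mean transcript length of each library relative to the mean of the Control libraries (log2), for the 30 genes with at least 50 counts in every library, in order of mean TPM. Itgav has both cKO libraries (red) below and Itgb5 both above the Control libraries (blue), while the most abundant genes lie at 0 and the low genes at the right scatter widely.

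Lists of the partners of these proteins were described in the same fit. Of 43 adaptors that link integrins to actin and signalling, 0 were called, with a median log2 fold change of 0.13, beside 0.06 over all genes. The 3 highest by TPM were Actn4, an actin cross-linker, with 337 and 391 TPM in cKO against 428 and 453 TPM in Control, Flnc, the muscle filamin, with 515 and 372 TPM in cKO against 305 and 290.0 TPM in Control, and Fermt2, the kindlin that activates integrins, with 154 and 175 TPM in cKO against 175 and 169 TPM in Control. Their log2 fold changes of the counts were -0.04 (SE 0.37), 0.40 (SE 0.40) and -0.19 (SE 0.36). In normalised count the groups of Actn4 overlapped, at 546 and 624 CPM in cKO against 586 and 617 CPM in Control. Of 14 catenins and other cadherin partners, 0 were called, with a median of 0.14. Ctnnb1, beta-catenin, had 130.035 and 103 TPM in cKO against 85.5 and 92.8 TPM in Control (log2 fold change of the counts 0.20, SE 0.36), and Jup, gamma-catenin, had 107 and 80.9 TPM in cKO against 63.6 and 63.7 TPM in Control (0.39, SE 0.35). For Ctnna1, alpha-catenin, the value was -0.17 (SE 0.36).

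Of 21 syndecan partners and enzymes of heparan sulphate synthesis, 0 were called, with a median log2 fold change of 0.01. Sdcbp, syntenin, which binds the syndecan tail, had 686 and 740 TPM in cKO against 801 and 776 TPM in Control (log2 fold change of the counts -0.32, SE 0.38). Sulf1, which trims sulphate from heparan sulphate outside the cell, had 431 and 474 TPM in cKO against 353 and 334 TPM in Control (0.04, SE 0.38), and Ndst1, which sulphates the chains, stood at -0.12 (SE 0.35). Of 27 integrin ligands and matrix proteins of the niche, 1 fell and 26 were not called, with a median of 0.06. The gene that fell was Lamb1, the laminin beta1 chain, with 15.7 and 13.9 CPM in cKO against 32.9 and 38.9 CPM in Control (-1.28, SE 0.33, adjusted p = 0.0255 in edgeR). Both cKO libraries were lower. Settings that lost the call included DESeq2's size factors, either other filter on low counts, limma on TPM, and the fits without Control 1 and without Control 2. The 3 highest of the list by mean TPM were Icam1, a receptor for leukocyte integrins (log2 fold change 0.25, SE 0.35), Ltbp1, which binds latent TGF-beta in the matrix (-0.49, SE 0.37), and Vtn, vitronectin (-0.38, SE 0.34). Vtn had 88.7 and 85.5 TPM in cKO against 97.9 and 106 TPM in Control. Leaving out a cKO library moved the whole table, not the 4 lists alone. Over all genes averaging 4 CPM or more, the median log2 fold change was -0.38 without cKO 2 and 0.13 without cKO 1. Lamb1 stood at -1.26 without cKO 2 and -1.36 without cKO 1. In the same order Dab2 stood at -0.92 and -0.70, and Tnc at -1.18 and -0.91. Fyn stood at 1.07 without cKO 1, a value that rests on cKO 2 alone. It had 16.3 CPM in cKO 1 and 36.8 CPM in cKO 2, against 18.5 and 17.0 CPM in Control, so cKO 1 lay below both Control libraries.

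**Figure D5:**
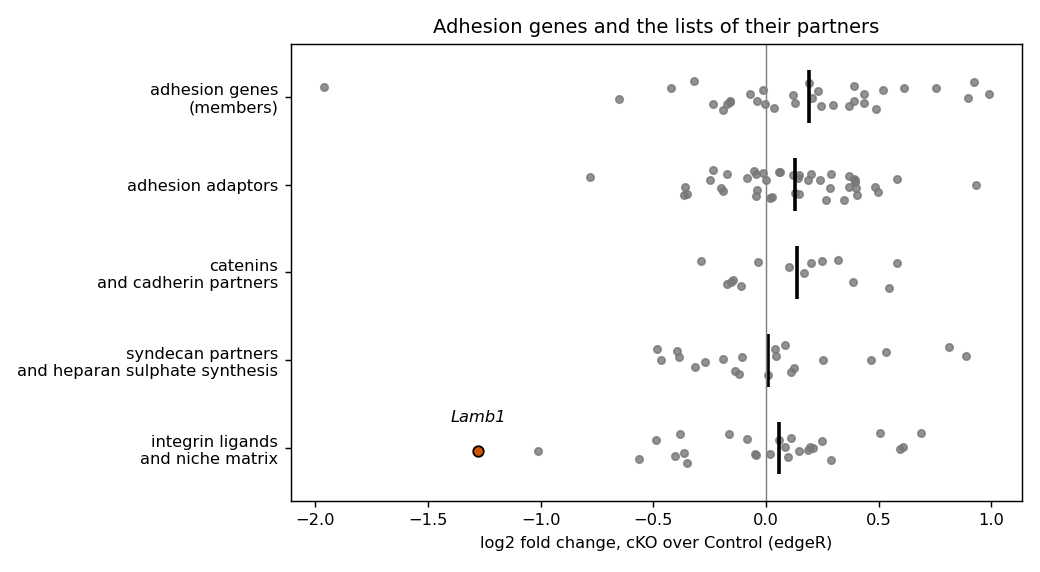
Log2 fold change, cKO over Control, from edgeR for the 33 adhesion genes and the 4 lists of their partners. Each point is a gene, the vertical bar is the list's median (0.19, 0.13, 0.14, 0.01 and 0.06 from top to bottom), and the orange point is Lamb1 at -1.28, the 1 gene called.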

How the data were processed

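RNA from freshly isolated satellite cells (10 ng per library, SMART-Seq cDNA, an MGI library kit, per the labels' protocols) gave 2 Rbfox2 cKO and 2 Control libraries. HISAT2 2.1.0, StringTie 1.3.6 and GRCm38 are named in the submitters' processing notes. The authors deposited estimated counts and TPM per gene. GENCODE M21 gave symbols and transcripts (55094 of 55487 identifiers matched with their version).

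The deposited estimated counts, whole numbers, entered edgeR 4.0.16 under R 4.3.3 (TMM, filterByExpr, robust quasi-likelihood test, Benjamini-Hochberg over 38143 genes, threshold 0.05). The SE is the size of the fold change over the square root of F. The authors' TPM were compared with limma 3.58.1 on log2(TPM + 1) where the mean TPM reached 1, which understates changes of low genes. Implied lengths (count over TPM, at least 50 counts) were compared with limma, each library centred on single-transcript genes. Alternatives were DESeq2 1.42.0, other scalings, filters and pseudocounts, and each library left out. The edgeR fit and the limma fit of implied lengths were tested on simulated data, and the other steps were not.

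The genes and lists were chosen with earlier results of these data known. All 33 are accounted for: those reaching a mean TPM of 1 in a group by library, and of each partner list the called genes and the 3 highest by TPM. The libraries of a group differed beyond counting noise (chi-square over degrees of freedom 83.5 in cKO and 49.6 in Control), and each was entered as 1 sample. Such a spread can be technical and does not show that the libraries come from separate animals. Their codes share L01 or L02 by number, and their final digit follows the group, so what that digit marks cannot be told apart from genotype.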

Additional observations from a re-analysis of the deposited data

How the results depend on the processing

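Of the 33 genes, 19 kept the sign of their log2 fold change in every alternative run and 14 did not. The runs reuse the same 4 libraries, so a gene whose cKO and Control pairs are apart can hardly change sign. Low genes also entered fewer runs, such as 10 for Itgam against 13 for Cdh4. The share of all genes that kept their sign was not counted. None was called with all 4 libraries under any scaling, filter or test. Leaving out each library in turn, 0 to 2 were called higher and 0 to 2 lower. The genes called over the whole table numbered 210, 119 with DESeq2's size factors, 28 without a filter, 14 when 2 libraries had to reach a CPM of 5, 96 in DESeq2, 53 in limma on log2(TPM + 1), 102 with a pseudocount of 0.1, 404 with no filter in limma, and 51 to 2267 with 1 library left out. Depth limits the lowest genes, such as Itgam with 20 to 121 counts per library.

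Signs turned as follows, and the cause was not tested. With DESeq2's size factors, and in DESeq2, Itgb5 was at -0.021. With library totals only, Itga8 was at 0.085, Itgb6 at 0.013, Cdh2 at 0.068, Cdh11 at 0.17 and Cdh15 at 0.13. With a CPM of at least 5, Itga8 was at 0.056, Cdh2 at 0.034 and Cdh15 at 0.10. In limma on log2(TPM + 1), with or without the filter, Itga8 was at 0.12, Itgav at 0.15, Itgb5 at -0.056, Cdh2 at 0.044, Cdh11 at 0.091 and Cdh15 at 0.15, and without the filter Itgb6 was at 0.19. With a pseudocount of 0.1 they were at 0.13, 0.16, -0.061, 0.053, 0.11 and 0.15 in the same order. With 1 library left out the range was -0.59 to 0.14 for Sdc4, -0.44 to 0.50 for Vcam1, -0.19 to 0.55 for Itgb1, -0.61 to 0.10 for Itgav, -0.55 to 0.35 for Itga8, -0.28 to 0.26 for Itgb5, -0.10 to 0.44 for Sdc3, -0.35 to 0.13 for Cdh2, -0.30 to 0.12 for Cdh11, -0.25 to 0.16 for Cdh15, -0.39 to 0.068 for Itgb8, -0.51 to 0.53 for Itga4 and -0.88 to 0.73 for Itga10.

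Of the partner lists, 1 gene was called lower with all libraries, 2 with library totals only, and 0 with DESeq2's size factors, with no filter, with a CPM of at least 5, and in limma under each setting, where 1 (Flnc) was called higher with no filter. With 1 library left out, 0 to 3 were called higher and 0 to 16 lower. At a mean TPM of at least 5, 15 genes were counted, against 25 at 1. For implied length, 5 genes were called over the whole table, 1 with at least 200 counts in every library and 0 with any 1 library left out, and the shift of Itga7 ran from -0.030 to 0.010.

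The same-numbered cKO and Control libraries share the number and the L01 or L02 part of the code, and the labels do not say what either marks. Over 10579 genes their deviations from the group means had a correlation of -0.21. With the replicate number as a block, 96 genes, 0 of the 33 and 0 of the partner lists were called, Lamb1 included, Itga10 stood at -0.0039, and 0 genes were called for implied length. With the numbers crossed, chosen after seeing the data, 243 genes and 0 of the 33 were called.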
